A study of Mus musculus with 2 samples.

Results

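The 43 genes described here encode the α, β and γ subunits of the heterotrimeric G proteins and the adenylyl cyclases. They were chosen by symbol from the 32531 genes listed for each library, and comprise 16 α genes, 5 β genes, 12 γ genes and 10 adenylyl cyclase genes. All 43 had a row in both libraries. RNA bound to tagged ribosomes was purified from the cerebral cortex of adult, untreated mice of line ES2243, in which a fusion of enhanced green fluorescent protein and the ribosomal protein Rpl10a follows the regulatory sequences of Gdnf, and was sequenced as 2 libraries, IP1 and IP2. Both are immunopurified samples and form 1 group. Unpurified cortex and other genotypes were not analysed here, and every value is a level, never an enrichment. The labels do not say whether the libraries came from separate animals or from pools, and their spread may be technical. The fusion marks whichever cells use the Gdnf sequences of this line.

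A heterotrimeric G protein couples a receptor in the plasma membrane to enzymes and channels inside the cell. On activation the α subunit exchanges GDP for GTP and parts from the βγ pair, and both then act on effectors. The α subunits form classes by effector: Gs stimulates adenylyl cyclase, Gi/o inhibits it and Gq/11 activates phospholipase C β, with G12/13 as a further class. In mural cells of vessels, Gq/11 and G12/13 are known for driving contraction, and cyclic AMP made by adenylyl cyclase for relaxation.

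The reads counted in genes came to 65200231 for IP1 and 72732502 for IP2. Levels are counts per 1000000 of that total (CPM), and a pair of levels always gives IP1 first and IP2 second. CPM is not corrected for transcript length, which was not used here, so a difference in CPM between genes may come from length, and no order of genes is drawn from it. The labelled cell type, the pericyte, was checked on markers. All 11 mural markers, all 4 arterial smooth muscle markers, all 8 neuron markers, all 7 oligodendrocyte lineage markers and 5 of 6 astrocyte markers reached 10 CPM in both libraries. None of 6 endothelial and none of 6 microglial markers did. The levels below therefore cannot be credited to pericytes alone, and in such a mixed sample fewer cells of a type and less RNA per cell cannot be told apart.

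Of the 43 genes, 29 (67.4%) were at or above 10 CPM in both libraries, against 28.3% of all 32531 genes listed. The median over the 43 was 63.1 and 58.8 CPM, and over all listed genes 0.18 and 0.096 CPM. Over the 19580 listed genes with at least 1 count in total, the median was 9.52 and 9.20 CPM. Of the other 14 members, 3 had no count in either library and 11 had means from 0.076 to 5.45 CPM. Reads matching several genes, or aligned to several places, were not assigned. The spans of 14 members (Adcy3, Adcy7, Gna13, Gnal, Gnao1, Gnaq, Gnas, Gnaz, Gnb2, Gnb4, Gnb5, Gng13, Gng3 and Gngt2) overlap that of another listed gene, and Gng2, Gnb1 and Gng5 have annotated pseudogenes, which may leave these counts low to an unknown degree.

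**Figure D1:**
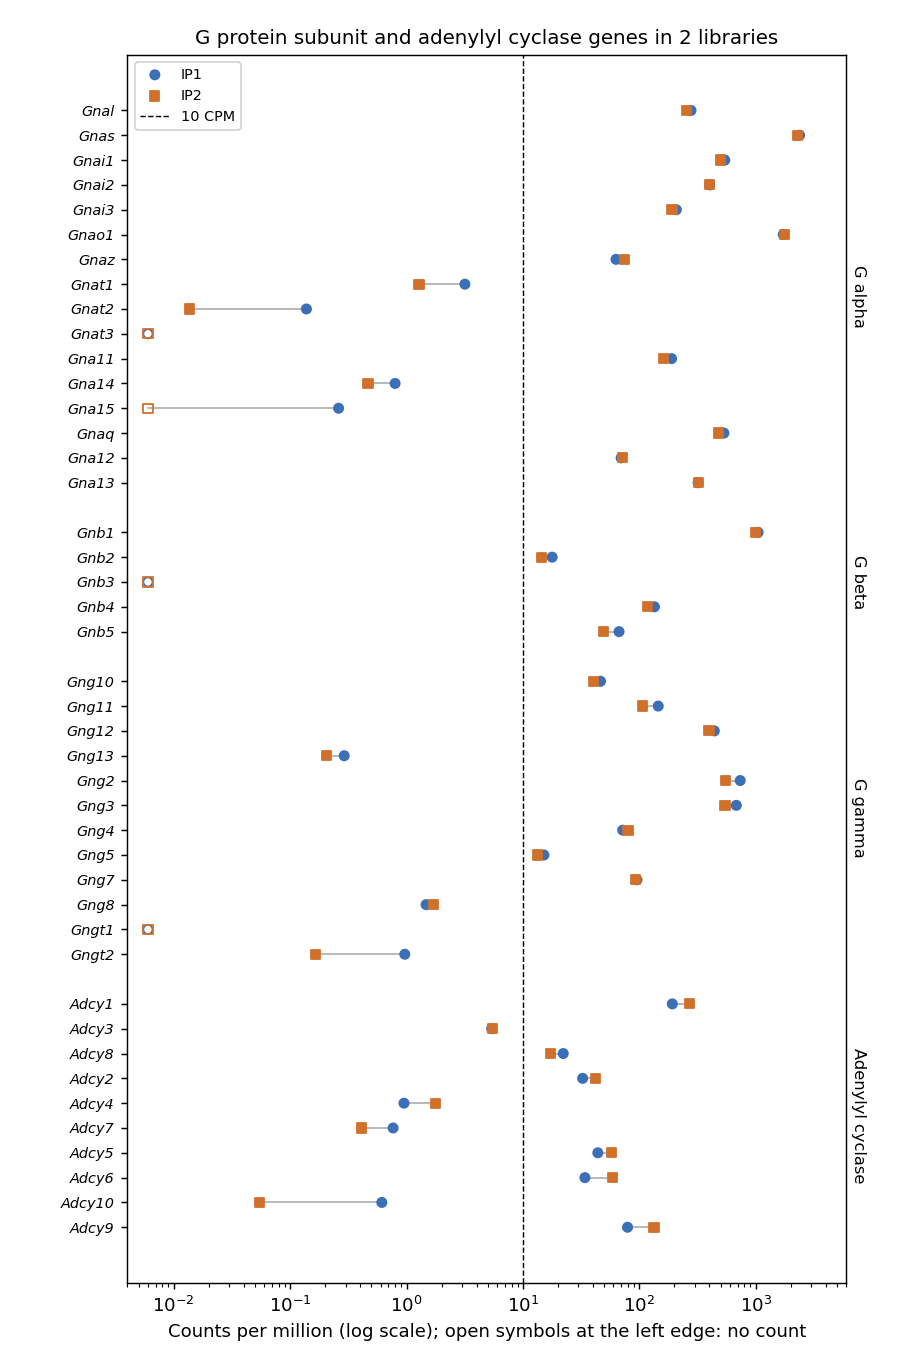
Level of each of the 43 genes in IP1 (blue circles) and IP2 (orange squares), in CPM on a log axis, grouped by subunit family, with a dashed line at 10 CPM and open symbols at the left edge for genes without a count. Of the 29 genes to the right of the line, 18 differ by less than 1.2-fold between the libraries, and the widest separations are among genes under 1 CPM.

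The start-site sequences of members differed in base composition. Promoter sequence from RefSeq (GRCm38.p6, the assembly also called mm10) was matched for 33 of 43 members. It was not matched for Adcy6, Adcy8, Gnai2, Gnal, Gnat1, Gnaz, Gnb3, Gnb4, Gng11 and Gngt2. The 250 bases before each listed start were read, which gave 43 windows because some genes have several starts. The GC box GGGCGG, searched on both strands, stood in 21 of 43 member windows (48.8%) and in 32.7% of all 32851 windows. It was present in 17 of the 28 windows of members at or above 10 CPM and in 4 of the 15 windows of the others. The median number of CpG dinucleotides per window was 22.5 for the former and 5 for the latter, against 6 over all windows. The set of all windows was not limited to genes at or above 10 CPM. A trait of detected genes in general was therefore not separated from one of these members. The cyclic AMP response element TGACGTCA, searched on both strands, was found in none of the member windows and in 1.55% of all windows. At so low a share, its absence from 43 windows is not read as a lack of this element. The TATA box TATAAA, also searched on both strands, stood in 5 member windows (11.6%) and in 12.4% of all windows. These member windows came from Gnas, Gnb5 and Gngt1 only, and Gnas gave several of them, including overlapping ones. A match is a string of letters and no evidence of binding.

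Promoters of 5 members are shown as examples from the 3 patterns described next. Adcy1 and Adcy9 encode adenylyl cyclases that were higher in IP2, Gng2 and Gng3 encode γ subunits that were higher in IP1, and Gnat3, the α subunit of taste cells, had no count. Each sequence runs 5′ to 3′ on the strand of the gene and ends at the base before the start, with GC boxes on either strand in capitals. The starts listed for Adcy9 and Gng2 lie inside the annotated gene, which has other starts. The windows are chr11:7063183-7063432 (plus strand) for Adcy1, chr16:4420499-4420748 (minus) for Adcy9, chr14:19976694-19976943 (minus) for Gng2, chr19:8839247-8839496 (minus) for Gng3 and chr5:17962320-17962569 (plus) for Gnat3.
Adcy1: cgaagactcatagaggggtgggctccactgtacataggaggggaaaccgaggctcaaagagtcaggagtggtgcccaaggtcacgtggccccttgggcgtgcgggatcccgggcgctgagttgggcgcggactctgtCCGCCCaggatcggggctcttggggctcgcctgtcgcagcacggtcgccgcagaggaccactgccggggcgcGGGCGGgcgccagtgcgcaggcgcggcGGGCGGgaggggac
Adcy9: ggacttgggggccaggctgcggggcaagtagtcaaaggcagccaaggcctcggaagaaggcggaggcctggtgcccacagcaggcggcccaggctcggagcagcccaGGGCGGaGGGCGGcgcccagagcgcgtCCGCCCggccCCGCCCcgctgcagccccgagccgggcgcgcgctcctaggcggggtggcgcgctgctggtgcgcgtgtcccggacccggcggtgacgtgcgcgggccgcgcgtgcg
Gng2: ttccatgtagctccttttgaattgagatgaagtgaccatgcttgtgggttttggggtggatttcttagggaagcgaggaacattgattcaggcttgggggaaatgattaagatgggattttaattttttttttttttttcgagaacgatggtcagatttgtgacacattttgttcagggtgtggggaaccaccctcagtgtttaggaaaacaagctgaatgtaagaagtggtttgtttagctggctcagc
Gng3: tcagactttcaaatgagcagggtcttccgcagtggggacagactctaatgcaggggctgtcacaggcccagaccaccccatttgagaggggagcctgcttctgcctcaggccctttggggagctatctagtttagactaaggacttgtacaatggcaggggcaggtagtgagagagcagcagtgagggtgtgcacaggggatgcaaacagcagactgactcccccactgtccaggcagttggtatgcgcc
Gnat3: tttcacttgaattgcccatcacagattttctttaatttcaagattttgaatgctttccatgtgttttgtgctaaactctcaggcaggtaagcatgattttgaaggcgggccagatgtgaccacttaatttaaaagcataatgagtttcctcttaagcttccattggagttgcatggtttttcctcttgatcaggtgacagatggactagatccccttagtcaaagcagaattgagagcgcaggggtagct
The windows of Adcy1 and Adcy9 hold 3 and 4 GC boxes, 26 and 34 CpG dinucleotides and 71.2% and 78.8% of G and C. The windows of Gng2, Gng3 and Gnat3 hold no GC box, 3, 2 and 2 CpG dinucleotides and 41.2%, 56.8% and 40.8% of G and C. The contrast does not extend to the families as such. The γ gene Gng5 has 3 GC boxes and 44 CpG dinucleotides in its window. Gng4, Gng7, Gng10 and Gng12 each have a window with a GC box, so Gng2 and Gng3 do not stand for the γ genes. The window of the cyclase gene Adcy4, also higher in IP2, holds 0 GC boxes.

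The 2 libraries were compared for 40 of the 43 members, those with at least 10 counts in total, within a two-sided exact binomial test of 17306 genes. This test compares the reads of 2 libraries of 1 group and holds counting error only. Ratios were taken on library sizes scaled by the trimmed mean of M-values (TMM), so they differ slightly from the quotient of the CPM. At an adjusted p under 0.05, 22 of the 40 members (55.0%) were higher in IP1 and 12 (30.0%) in IP2, while 38.2% and 37.6% of all tested genes were. With a ratio of at least 2 also required, the call went towards IP1 for 5 members (12.5%) and towards IP2 for 0, against 10.3% and 7.25% of all tested genes. The 5 were Adcy10, Gna15, Gnat1, Gnat2 and Gngt2, each under 4 CPM in both libraries. All 29 members at or above 10 CPM had log2 ratios of IP2 over IP1 between -0.40 and 0.84. The 9656 genes whose mean reached 10 CPM had a central 95% between -0.63 and 0.85, so none of the 29 stood outside the usual difference between these libraries. Of the 29, 18 differed by less than 1.2-fold.

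**Figure D2:**
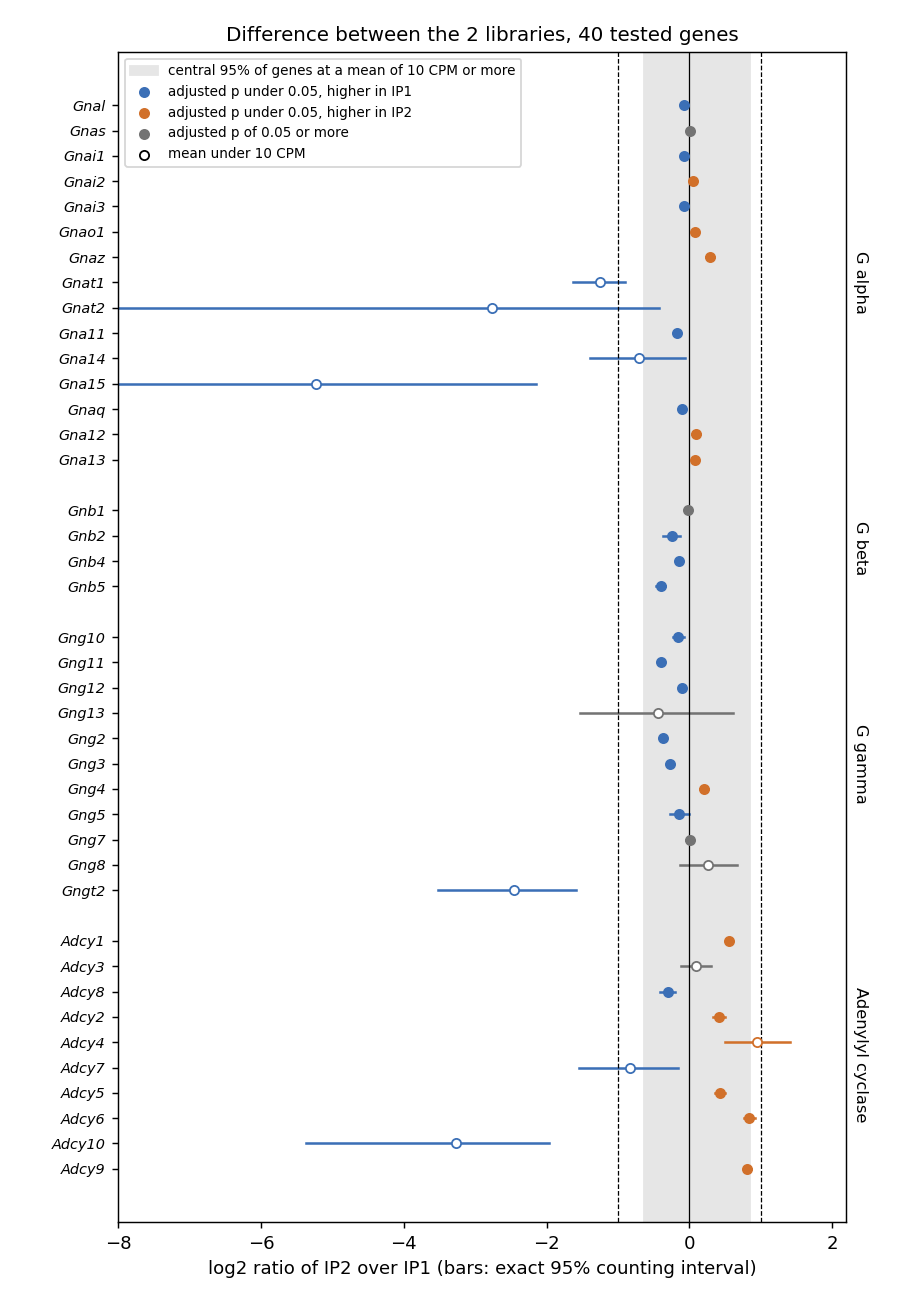
Log2 ratio of IP2 over IP1 for the 40 tested members, with exact 95% counting intervals as bars (those of Gnat2 and Gna15 run past the left edge), dashed lines at a ratio of 2 in each direction and the central 95% of all genes averaging 10 CPM or more in grey. Filled symbols, the members averaging 10 CPM or more, all lie in the grey band, from -0.40 to 0.84.

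Among the α subunits, both Gs genes were well detected and nearly equal in the 2 libraries. Gnas (chromosome 2, 174284320 to 174346744, mm10) encodes the widely used Gs α subunit and stood at 2381 and 2303 CPM (2342 ± 55.3, SD, n = 2). Its log2 ratio of 0.01 did not pass the exact binomial test (Benjamini-Hochberg adjusted p = 0.37). Under total-count scaling it passed towards IP1 (log2 ratio -0.048, exact binomial adjusted p = 1.3e-20). The locus also gives other imprinted transcripts from upstream starts, and 4 start windows were listed for it, so the count does not separate Gs α from those. Its antisense gene Nespas had no count in either library. Gnal, which encodes the Golf subunit that replaces Gs in olfactory and striatal neurons, was at 278 and 255 CPM, slightly higher in IP1 (log2 ratio -0.07, exact binomial adjusted p = 3.0e-06). Gnal did not pass once the libraries were taken to vary by a coefficient of variation of 0.1 (edgeR exact test, adjusted p = 0.85).

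All 5 Gi/o genes outside the sensory group reached 10 CPM, and their direction between libraries was mixed. Gnao1, the Go subunit that is prominent in neurons, was at 1723 and 1758 CPM (1741 ± 24.7) and slightly higher in IP2 (log2 ratio 0.08). The Gi genes Gnai1 (542 and 497 CPM), Gnai2 (402 and 402 CPM) and Gnai3 (208 and 191 CPM) lay within 1.2-fold between libraries. Gnaz, a pertussis toxin-insensitive Gi relative, was at 63.1 and 74.1 CPM and higher in IP2 (log2 ratio 0.29, exact binomial adjusted p = 3.5e-21). By the adjusted p, 3 of the 5 were higher in IP2 (Gnao1, Gnai2 and Gnaz) and 2 in IP1 (Gnai1 and Gnai3). Their median log2 ratio was 0.05. Of all tested genes, 37.6% passed towards IP2 and 38.2% towards IP1. Under total-count scaling Gnai2 did not pass (adjusted p = 0.95). None of the 5 passed once the libraries were taken to vary by a coefficient of variation of 0.1. The lowest adjusted p of that edgeR exact test was 0.33, for Gnaz.

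Of the Gq/11 class, both broadly used genes were well detected and both genes of restricted use were under 1 CPM. Gnaq was at 533 and 477 CPM (505 ± 39.7), and Gna11 at 189 and 162 CPM. Both were higher in IP1, with log2 ratios of -0.11 and -0.17 (exact binomial adjusted p = 5.9e-22 and 2.1e-19). That test holds counting error only. Neither gene passed once the libraries were taken to vary by a coefficient of variation of 0.1 (edgeR exact test, adjusted p = 0.76 and 0.60). Gna14, a subunit of the same class with a narrow range of tissues, was at 0.80 and 0.47 CPM. Gna15, the G15/16 subunit of blood cells, had 17 counts in IP1 and 0 in IP2. It was called higher in IP1, with a counting interval of the ratio of IP2 over IP1 that reached up to 0.23. All 4 genes of the class passed the exact binomial adjusted p on the IP1 side, as did 38.2% of all tested genes. Of the 4, only Gna15 also passed the edgeR exact test at that coefficient of variation.

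The G12/13 genes differed by less than 1.2-fold. Gna13 stood at 319.6 and 325 CPM, and Gna12 at 69.8 and 71.5 CPM. Both were higher in IP2 by the adjusted p (log2 ratios 0.08 and 0.09, exact binomial adjusted p = 6.2e-08 and 0.0036), and neither passed under total-count scaling (adjusted p = 0.11 and 0.26). Nor did they pass once the libraries were taken to vary by a coefficient of variation of 0.1 (edgeR exact test, adjusted p = 0.84 and 0.81).

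The β subunits were represented by 4 of 5 genes. Gnb1, the common β subunit, was at 1048 and 1003 CPM (1025 ± 32.3), with a log2 ratio of -0.01 (exact binomial adjusted p = 0.18). Gnb4 was at 135 and 117 CPM. Gnb5, the divergent β subunit that pairs with RGS proteins of the R7 family, was at 67.0 and 49.0 CPM. Gnb2, a close relative of Gnb1, was at 17.8 and 14.5 CPM. Gnb4, Gnb5 and Gnb2 were higher in IP1, with log2 ratios from -0.40 (Gnb5) to -0.15 (Gnb4), and none of the 4 was higher in IP2. Gnb1 joined them under total-count scaling (log2 ratio -0.06, adjusted p = 2.5e-16). Of all tested genes, 38.2% passed towards IP1 and 37.6% towards IP2. When a coefficient of variation of 0.1 between libraries was assumed in an edgeR exact test, Gnb1, Gnb2, Gnb4 and Gnb5 did not pass. The lowest adjusted p of that test was 0.15, for Gnb5.

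The γ subunits, small prenylated proteins that anchor β at the membrane, were for the most part higher in IP1. Gng2 was at 736 and 548 CPM (642 ± 133, SD, n = 2, log2 ratio -0.37), and Gng3, a γ subunit of neurons, at 681 and 544 CPM (612 ± 97.2, log2 ratio -0.27). Gng12 was at 441 and 397 CPM (log2 ratio -0.10), and Gng11 at 145 and 106 CPM (log2 ratio -0.40). All 4 were lower in IP2 than in IP1. Gng7, known for its pairing with Golf in the striatum, did not pass (95.4 and 92.2 CPM, log2 ratio 0.003, exact binomial adjusted p = 0.92). Gng4 was the exception, at 72.0 and 79.8 CPM (log2 ratio 0.20, exact binomial adjusted p = 2.8e-12). Gng10 (46.4 and 40.2 CPM) and Gng5 (15.2 and 13.3 CPM) completed the detected members. Gng8 was at 1.47 and 1.70 CPM.

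Of the 11 γ genes tested, 7 were higher in IP1 by the adjusted p, 1 in IP2 and 3 in neither. Of all 17306 tested genes, 38.2% were higher in IP1 and 37.6% in IP2. The median log2 ratio was -0.15 for the γ genes and -0.004 for all tested genes. The 7 were Gng2, Gng3, Gng5, Gng10, Gng11, Gng12 and Gngt2. Their count was also 7 with DESeq2 size factors and with total-count scaling. When a coefficient of variation of 0.1 between libraries was assumed in an edgeR exact test, only Gngt2 of them passed. Gng3 (chromosome 19, 8836929 to 8839246) lies within a region shared with Bscl2, which had 1579 counts in IP1 and 1963 in IP2.

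The adenylyl cyclases had the highest median log2 ratio of the 4 families, and 6 of 10 were higher in IP2 by the adjusted p, against 37.6% of all tested genes. Adcy9 (chromosome 16, 4284886 to 4437236), a cyclase that responds weakly to forskolin, was at 79.2 and 134 CPM (106 ± 38.6, SD, n = 2), 1.75-fold higher in IP2 with a counting interval of 1.69 to 1.81. Adcy6 (chromosome 15, 98589978 to 98610287), one of the calcium-inhibited cyclases and a form found in vascular smooth muscle, was at 34.1 and 58.8 CPM (46.5 ± 17.5), 1.79-fold higher in IP2 (1.70 to 1.88). Its calcium-inhibited relative Adcy5, known as the striatal cyclase, was at 44.0 and 57.3 CPM. Both calcium-inhibited genes were therefore higher in IP2.

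Adcy1, a calmodulin-stimulated cyclase of neurons, was at 192 and 272 CPM (232 ± 56.5, log2 ratio 0.56), on the same side as Adcy5 and Adcy9. Adcy2, which βγ can stimulate, was at 32.6 and 41.9 CPM (log2 ratio 0.42). Adcy8, the other calmodulin-stimulated cyclase of neurons, went the opposite way, with 22.2 and 17.3 CPM (log2 ratio -0.30, exact binomial adjusted p = 1.2e-07). The 2 neuronal calmodulin-stimulated genes thus differed in direction by the exact binomial test. At an assumed coefficient of variation of 0.1 in the edgeR exact test, Adcy1 passed (adjusted p = 0.027) and Adcy8 did not (0.31). Adcy3, a cyclase of olfactory neurons and of primary cilia, was at 5.38 and 5.51 CPM and did not pass (exact binomial adjusted p = 0.47).

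The remaining cyclases were scarce. Adcy4, a cyclase of endothelial and other vascular cells, was at 0.95 and 1.77 CPM, and with a log2 ratio of 0.95 it lay just under the 2-fold limit for a call. Adcy7 was at 0.77 and 0.41 CPM and higher in IP1 (exact binomial adjusted p = 0.019). Adcy10, the soluble cyclase that responds to bicarbonate, had 40 counts in IP1 and 4 in IP2. Its call towards IP1 rests on 0.61 and 0.055 CPM.

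Across the 10 cyclases, 6 were higher in IP2 by the adjusted p (Adcy1, Adcy2, Adcy4, Adcy5, Adcy6 and Adcy9), 3 in IP1 (Adcy7, Adcy8 and Adcy10) and 1 in neither, with a median log2 ratio of 0.42. The count of 6 was the same with DESeq2 size factors and with total-count scaling. With an assumed coefficient of variation of 0.1 in the edgeR exact test 4 of the 6 passed, and with 0.2 none did. Adcy2 and Adcy5 did not pass at 0.1. Markers of other cells also differed between the libraries, where 37.6% of all tested genes were higher in IP2 and 38.2% in IP1. All 6 astrocyte markers were higher in IP2 (median log2 ratio 0.87, summed level 1363 and 2418 CPM). Of 11 mural markers, 7 were higher in IP2 and 4 in IP1 (median 0.62, summed level 6608 and 6423 CPM). Rgs5 alone was at 4841 and 4061 CPM, so the mural sum mostly follows that gene. Of 7 oligodendrocyte lineage markers, 5 were higher in IP2 and 2 in IP1 (median 0.21, 3208 and 3639 CPM), and of 8 neuron markers, 5 were higher in IP2 and 3 in IP1 (median 0.10, 15287 and 13467 CPM). Snap25 alone was at 12770 and 10795 CPM, so the neuron sum mostly follows that gene. Of 4 arterial smooth muscle markers, 3 were higher in IP2 and 1 in IP1 (median 0.07, summed level 643 and 578 CPM). Of the 5 endothelial markers tested, 3 were higher in IP2 and 1 in IP1 (median 0.74, summed level of all 6 markers 12.9 and 15.3 CPM). Of these lists, only the endothelial one held a marker without a count in a library, Cldn5, with 5 counts in IP1 and 0 in IP2. Their part in the result was not tested.

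**Figure D3:**
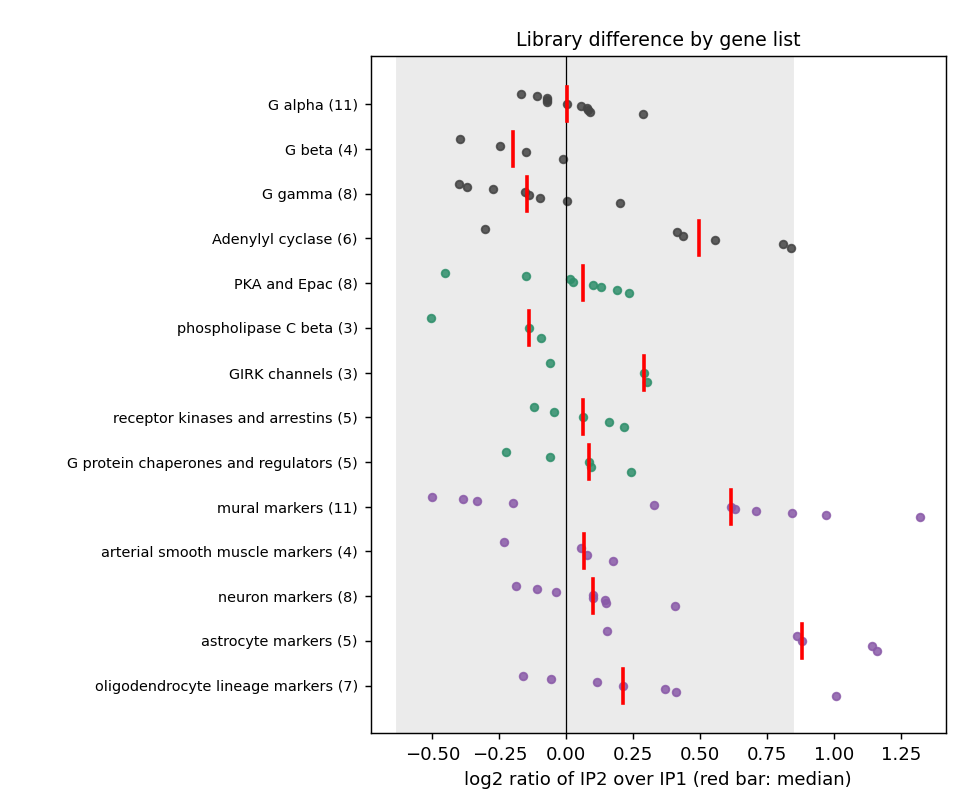
Log2 ratio of IP2 over IP1 for genes averaging 10 CPM or more, by subunit family (black), list of effectors and regulators (green) and marker list (purple), with the number of genes in parentheses, a red bar at each median and the central 95% of all such genes in grey (endothelial and microglial markers are left out, having fewer than 3 such genes). The cyclases have 5 of 6 genes above 0, the γ subunits 2 of 8, and the astrocyte markers have the highest median.

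Members that serve phototransduction and taste were scarce, and none of the 7 reached 10 CPM in either library. Of these, Gnat3, Gnb3 and Gngt1 had no count in either library, and a count of 0 allows up to 0.046 and 0.041 CPM. These limits cover counting error only. Gnat1, the rod transducin α subunit, had 207 counts in IP1 and 93 in IP2, or 3.17 and 1.28 CPM (log2 ratio -1.25, exact binomial adjusted p = 1.2e-12). Gnat2, the cone form, had 9 counts in IP1 and 1 in IP2, a ratio of IP2 over IP1 of 0.15 with a counting interval of 0.0024 to 0.75. Gng13, used in taste and olfactory cells and in retinal bipolar cells, was at 0.29 and 0.21 CPM. The summed level of the 7 genes was 4.57 and 1.66 CPM.

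Gngt2, the cone γ subunit, was called higher in IP1, with 63 counts (0.97 CPM) against 12 (0.17 CPM). Its span overlaps that of Abi3, which had 57 counts in IP1 and 17 in IP2. Of the 6 microglial markers, 3 were higher in IP2 and none in IP1, against 37.6% and 38.2% of all tested genes. The summed level of these markers was 24.8 and 30.2 CPM, and their part in the Gngt2 call was not tested.

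The effectors and regulators on which these proteins act were counted from lists chosen with earlier results of these data known. All 8 genes of protein kinase A and Epac, the targets of cyclic AMP, reached 10 CPM. Prkar1a, a regulatory subunit, was at 1005 and 986 CPM, and the catalytic Prkacb at 682 and 664 CPM. Prkaca, the other catalytic gene, was at 203 and 224 CPM, and Prkar2a at 184 and 209 CPM. By the adjusted p, 5 were higher in IP2 and 2 in IP1, against 37.6% and 38.2% of all tested genes. Prkar1a was among the 5 with a log2 ratio of 0.03 on TMM-scaled sizes, although its CPM was lower in IP2. Its side therefore depends on the scaling. The median log2 ratio of the 8 was 0.06. The largest difference was that of Prkar1b, at 169 and 119 CPM.

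The phospholipase C β genes, effectors of Gq/11, were, like Gnaq and Gna11, higher in IP1 where they passed. Plcb1 was at 285 and 194 CPM (log2 ratio -0.50), and Plcb4 at 116 and 101 CPM. Plcb3 (28.0 and 25.3 CPM) did not pass the exact binomial test (adjusted p = 0.062), and Plcb2 (2.35 and 1.18 CPM) was scarce. On the IP1 side 3 of 4 passed, and none on the IP2 side, against 38.2% and 37.6% of all tested genes.

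The GIRK potassium channels, opened by βγ, had 3 of 4 genes at or above 10 CPM. Kcnj3 was at 81.0 and 74.9 CPM, Kcnj9 at 31.9 and 37.9 CPM and Kcnj6 at 23.8 and 28.1 CPM. Kcnj5, the atrial subunit, was scarce (0.58 and 2.23 CPM) and was the single effector or regulator called between the libraries, higher in IP2.

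Receptor kinases and arrestins, which switch receptors off, reached 10 CPM for 5 of 7 genes. Arrb1 was at 219 and 204 CPM, Adrbk2 at 55.7 and 56.0 CPM, Grk5 at 47.0 and 52.6 CPM and Adrbk1 at 42.7 and 46.0 CPM. Chaperones and regulators of the α subunits reached it for 5 of 7. Ccdc88a, a non-receptor exchange factor for Gi, was at 447 and 457 CPM. Ric8b, a chaperone of Gs and Golf, was at 76.6 and 70.9 CPM, Ric8, the chaperone of the other classes, at 55.8 and 45.9 CPM and Pdcl, a chaperone of βγ assembly, at 44.6 and 50.8 CPM. No gene of these 2 lists differed by 2-fold.

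**Figure D4:**
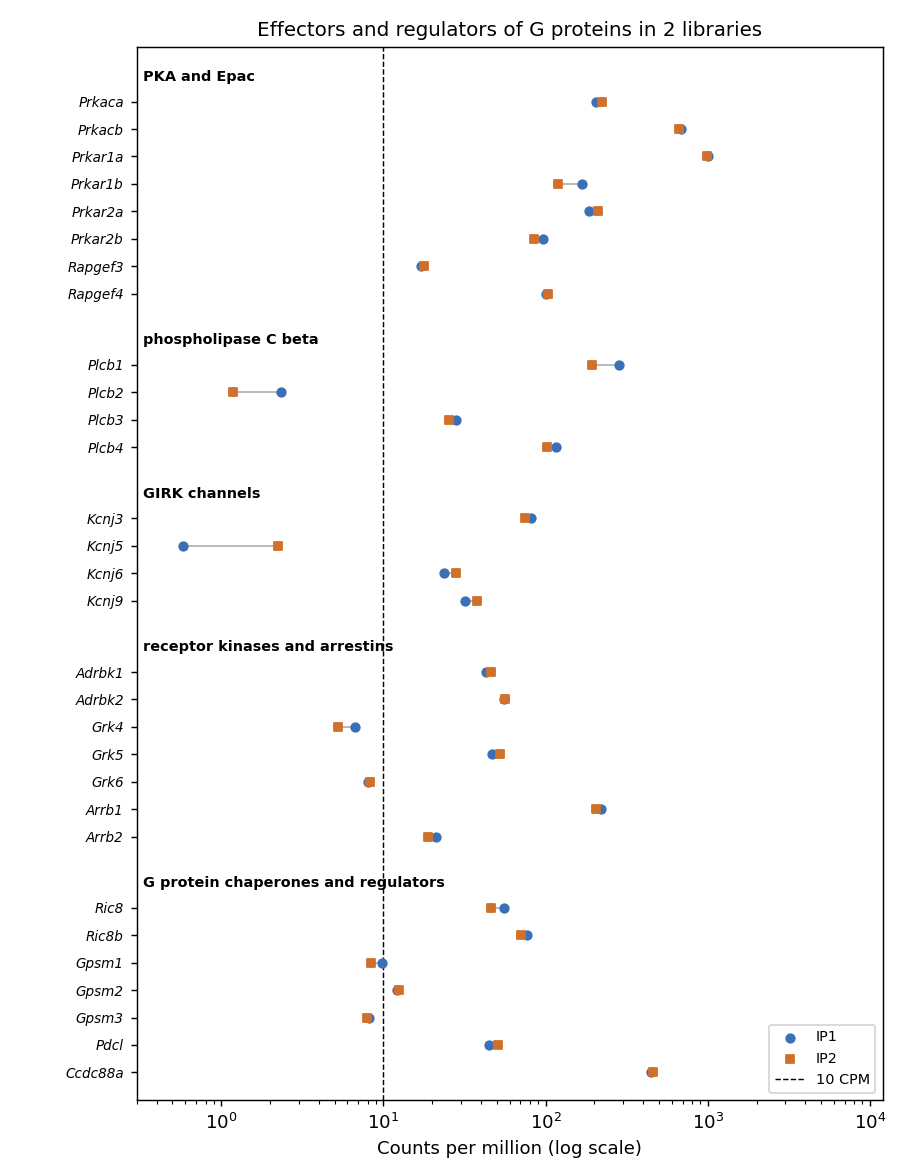
Level of the listed effectors and regulators of G proteins in IP1 (blue circles) and IP2 (orange squares), in CPM on a log axis, with a dashed line at 10 CPM. The symbols nearly coincide for most genes, and Kcnj5 (0.58 and 2.23 CPM) and Plcb2 (2.35 and 1.18 CPM) show the widest separations.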

How the data were processed

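The submitters' processing notes name STAR 2.0.0e, HTSeq and the mm10 build, taken here as aligner, counter and genome. Which gene models and which strand mode were used is not given in the sources used here. The deposited files hold 1 raw count per gene symbol and library, with no normalization by the authors. Summary lines and the row named unknown (1 read in IP1) were left out. Reads in genes were 58.1% and 57.7% of all listed reads in IP1 and IP2, and reads aligned to several places 31.2% and 31.5%.

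CPM was computed on the total of all gene counts, and values stand per library. The exact binomial test used TMM-scaled totals from edgeR 4.0.16 on 17306 genes with at least 10 counts in total, with Benjamini-Hochberg adjustment over all of them and a prior of 0.5 counts for ratios. Calls required both a 2-fold ratio or more and an adjusted p below 0.05. Intervals are exact at 95% and cover counting error only. They hold no term for variation between libraries, and reads were not marked by molecular identifiers. The test was checked on simulated counts that held counting error only, so the check does not cover variation between libraries. Promoters, gene spans and pseudogene names came from RefSeq tables of GRCm38.p6. DESeq2 1.42.0 gave alternative size factors. R 4.3.3 and Python 3.11.15 were used.

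The members and lists were chosen with earlier results of these data known. All members are accounted for. Each library's value is given for members at 10 CPM or called, and for the 4 genes with the most CPM in each effector list, a rule for naming and no comparison of their levels. A few scarce members, Prkar1b, Plcb2 and Kcnj5 were named after their values were seen. A planned list of effectors of 1 subunit class is not reported here.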

Additional observations from a re-analysis of the deposited data

How the results depend on the processing

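The number of members past the level threshold (29) lay between 26 and 30 with other scalings, without Rn45s, with thresholds of 5 and 20 CPM and without either library. The median of the members (58.0 CPM on the mean of both libraries) was 58.8 CPM without replicate 1, 63.1 CPM without replicate 2 and 69.6 CPM over members with at least 10 counts in total, which leaves out the genes without counts. The 5 calls towards IP1 became 3 with an assumed coefficient of variation of 0.2 in the edgeR exact test (Adcy10, Gna15 and Gngt2), and at a ratio of at least 1.5 they became 7 and the 0 calls towards IP2 became 3, with 2666 and 2439 of all 17306 genes called on those sides. With an assumed coefficient of variation of 0.1, γ genes past the adjusted p towards IP1 fell from 7 to 1, and with 0.2 there was 1 and cyclases towards IP2 fell from 6 to 0. The same assumed values took the genes past the adjusted p from 13128 to 5045 and 2021 of 17306. Settings on cyclases, γ genes and single members were chosen after seeing the data. Of the 40 tested members, all 40 kept their direction and side of the threshold with DESeq2 size factors and 34 with total-count scaling, under which the log2 ratios of Gnas (-0.048) and Gng7 (-0.050) changed sign, and Gnas then passed the threshold (adjusted p = 1.3e-20). The share of the α read density held by Gi/o, planned per length, was not run, because transcript lengths were not used here. A ratio between the libraries cannot be had without either of them.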
